A study of Drosophila melanogaster with 8 samples.

Results

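miR-317-3p and miR-277-3p are the guide strands of 2 hairpins that lie in a row upstream of mir-34 on chromosome arm 3R of Drosophila melanogaster. Both were picked by arm name (mir-317-3p and mir-277-3p), as 2 of the 262 mature arms in the tables, and both had reads at a single listed start position in every library. They were measured by small RNA sequencing of Schneider 2 (S2) cells, a cell line set up from late fly embryos that resembles blood cells. The labels describe 4 genotypes with 2 biological replicates each. These are nbrKO, a knockout of the exonuclease gene nbr, then nbrKO + nbrWT-OE, the knockout with added wild-type Nbr, then nbrKO + nbrCM-OE, the knockout with an added catalytic mutant of Nbr, and wild type. Whether the knockout is a single clone, and which promoter drives the added Nbr, was not stated in the labels. The design asks whether small RNA lengths depend on Nbr and on its catalytic activity. The tables number their 8 libraries from 81154 to 81161 and the labels hold none of these numbers, so every value below belongs to a numbered library and none to a genotype.

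MicroRNA (miRNA) guides are cut out of hairpins by Drosha and Dicer and loaded into an Argonaute protein, where the 3′ end can still be shortened. In flies Nibbler (Nbr), a 3′-to-5′ exoribonuclease, shortens part of the miRNAs bound to Argonaute1, while a 2′-O-methyl group set by Hen1 protects the 3′ ends of small RNAs bound to Argonaute2. miR-277 is known in flies for the control of branched-chain amino acid breakdown and lifespan, and in S2 cells part of it is loaded into Argonaute2. miR-317 has been linked in flies to the restraint of Toll immune signalling, and miR-34, the third miRNA of the cluster, to ageing.

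The first 8 bases that the tables list for each guide are shown because they define what it can pair with. They read 5′ to 3′ as DNA, with the seed, bases 2 to 8, in capitals.
miR-317-3p: tGAACACA
miR-277-3p: tAAATGCA
miR-34-5p: tGGCAGTG
The 3 guides have different seeds, although they come from neighbouring hairpins. Bases 2 to 8 of miR-317-3p were listed for 1 other mature arm, miR-4943-3p, which had only 1.86 to 4.16 RPM (reads for every 1000000 small RNA reads). Those of miR-277-3p were listed for 0 others.

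In dm6 coordinates of the BDGP6 annotation, the mir-317 hairpin (FBgn0262378) spans chr3R:10091126-10091217 on the plus strand and lies within no other annotated gene. Its 3p arm is annotated at chr3R:10091181-10091204, 24 nt. The mir-277 hairpin (FBgn0262419) lies 8804 bases downstream at chr3R:10100022-10100121, plus strand, inside lncRNA:CR43459, where it is exonic in 2 of 3 transcripts. Its 3p arm is annotated at chr3R:10100080-10100102, 23 nt. The mir-34 hairpin follows after 814 bases. The start positions in the tables, base 56 of the mir-317 hairpin and base 59 of mir-277, fall exactly on the annotated 5′ ends. Differences in read length therefore lie at the 3′ end, and the annotated length served as the point of comparison.

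The libraries held 17145872 to 32958242 small RNA reads, and each member was measured on 64709 to 172424 reads per library. No 2 libraries held identical values (0 of 28 pairs). Of 15 arms typical of other tissues that the tables list, such as the neuronal miR-124-3p and the muscle miR-1-3p, 1 averaged 10 RPM or more. It was miR-6-3-3p (16.6 RPM), of the mir-309 cluster of the early embryo. That cluster gave 6 of the 15 arms, and the mir-310 cluster, also of the early embryo, gave 5. The list took miR-992-3p from the mir-310 cluster and left out the opposite arm, miR-992-5p. That arm averaged 40.7 RPM, with a median over the libraries of 18.2 nt in mean length. Pooled over every arm, mean read length differed by 0.168 nt between libraries.

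miR-317-3p varied widely in length between libraries. Its mean read length was 21.99 nt (library 81154), 21.90 nt (81155), 22.90 nt (81156), 22.89 nt (81157), 22.43 nt (81158), 22.33 nt (81159), 23.10 nt (81160) and 23.04 nt (81161). The lowest and highest values lay 1.196 nt apart, and the counting SE was at most 0.00543 nt. Libraries 81154 and 81155 were the shortest, 81160 and 81161 the longest. Every library stayed below the annotated 24 nt, by 0.903 nt in 81160 and by up to 2.10 nt in 81155.

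miR-277-3p varied less. Its reads averaged 22.25 nt (library 81154), 22.20 nt (81155), 22.47 nt (81156), 22.48 nt (81157), 22.36 nt (81158), 22.38 nt (81159), 22.55 nt (81160) and 22.55 nt (81161). These values ranged over 0.355 nt, so the range of miR-317-3p was 3.36 times as wide. The counting SE, which leaves out variation from library preparation, was at most 0.00296 nt. When the median deviation of the arms was taken off each library, the range of miR-277-3p became 0.215 nt and that of miR-317-3p 1.04 nt. Below the annotated 23 nt, miR-277-3p fell short by only 0.448 nt in 81160 to 0.803 nt in 81155.

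**Figure D1:**
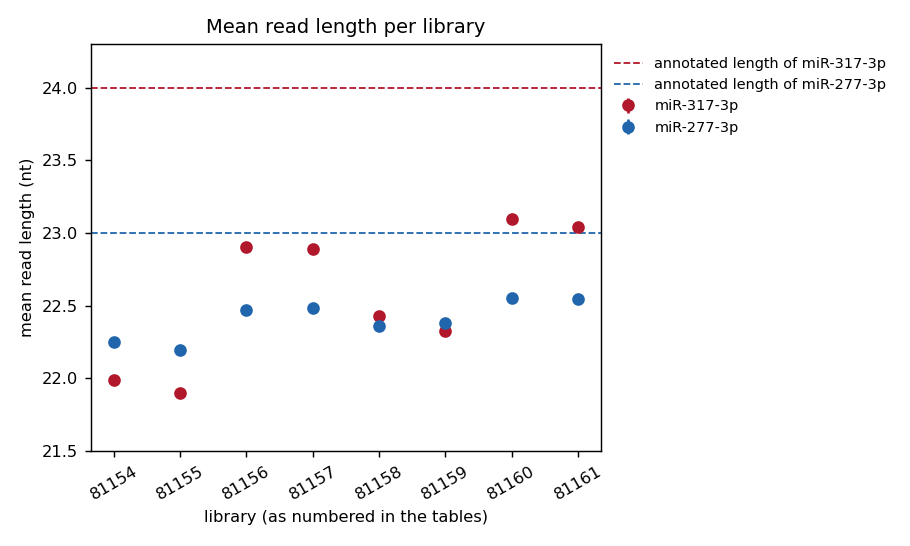
Mean read length in nt (vertical axis, not from 0) of miR-317-3p and miR-277-3p in each of the 8 libraries, with the annotated lengths of 24 and 23 nt as dashed lines; counting SEs of at most 0.00543 nt are smaller than the symbols. The points of miR-317-3p spread over 1.196 nt and cross those of miR-277-3p, which spread over 0.355 nt.

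Which guide was longer depended on the library. miR-317-3p exceeded miR-277-3p by 0.545 nt in library 81160, 0.494 in 81161, 0.430 in 81156, 0.404 in 81157 and 0.0682 in 81158. It was the shorter guide, with differences of -0.257 nt in 81154, -0.296 in 81155 and -0.0568 in 81159. The counting SE of these differences was at most 0.00619 nt. The reversal rested on the shortest reads: over 20 to 26 nt miR-317-3p was the longer guide in all 8 libraries, by 0.0212 to 0.646 nt. The libraries followed nearly the same order for both guides, and 26 of the 28 pairs of libraries were ordered alike by the mean length of each. Over the 100 arms averaging 10 RPM or more, the median deviation in length ran from -0.0820 nt in 81155 to 0.0772 nt in 81160. This deviation, taken from each arm's own mean, put the libraries in the same order as miR-277-3p did. The order was thus not particular to the 2 guides.

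The length profile of miR-317-3p changed shape between libraries. In libraries 81154 and 81155 its most common length was 21 nt, with 23.5 and 24.2% of its reads, and a smaller peak stood at 24 nt. In 81155 there was also a peak at 19 nt, with 9.65%. In 81158 and 81159 peaks stood at both 24 and 21 nt, with 30.0 and 27.3% at 24 nt and 20.3 and 20.9% at 21 nt, and fewer reads in between. In the other 4 libraries the reads formed a single peak at 24 nt, with 37.3 to 42.5%. A peak is meant as a length with at least 1% of the reads and more reads than at either neighbouring length.

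The 21 nt share of miR-317-3p ran between 8.50% in 81160 and 24.2% in 81155, with a median of 15.8%. At 20 nt it lay between 2.71 and 9.21%, and at 19 nt between 2.58 and 9.65%. These short forms moved against the 24 nt form, which was lowest in 81155 and highest in 81160. The 22 nt share varied less, with a lowest value of 14.1% and a highest of 21.6%. The 23 nt share, 12.9 to 21.3%, was like the 24 nt share lowest in 81155.

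miR-277-3p kept a single peak at its annotated 23 nt in all 8 libraries. That length held 46.6% (library 81154), 44.6% (81155), 59.2% (81156), 59.8% (81157), 52.9% (81158), 53.8% (81159), 63.3% (81160) and 63.7% (81161) of its reads. The share was thus lowest and highest in nearly the same libraries as the annotated 24 nt form of miR-317-3p. The reads below 23 nt were mostly 22 nt, with 24.6 to 31.3%, and 21 nt, with 8.50 to 20.6%. At 20 nt only 0.903 to 2.26% were left.

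**Figure D2:**
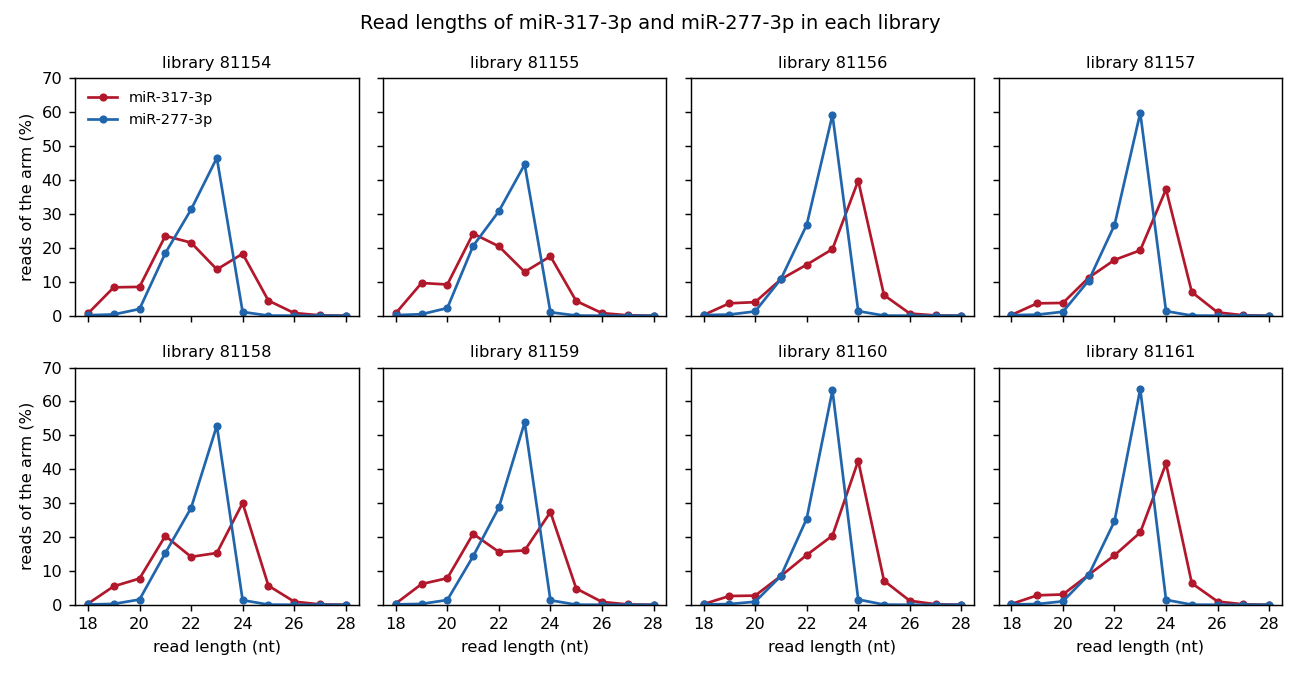
Share of reads (%, vertical axis from 0) at each read length in nt for miR-317-3p and miR-277-3p, with 1 panel per library. The most common length of miR-277-3p is 23 nt in every panel, whereas that of miR-317-3p is 21 nt in 81154 and 81155 and 24 nt in the other 6 libraries.

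The guides differed in how many of their reads ended before the annotated end and in how far before it they ended. Reads shorter than annotated made up 76.3% (library 81154), 77.2% (81155), 53.3% (81156), 54.6% (81157), 63.3% (81158), 66.9% (81159), 49.1% (81160) and 50.8% (81161) of miR-317-3p. The 95% Wilson interval was 77.0 to 77.4% in 81155 and 48.8 to 49.4% in 81160. For miR-277-3p the share was 34.8% in its lowest library, 42.1% in the median and 54.3% in its highest. In every library it was lower than for miR-317-3p, by 14.0 to 24.0 percentage points.

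A shorter read of miR-317-3p lacked 2.04 nt on average in library 81160 and 2.80 nt in 81155, with a median of 2.41 nt. A shorter read of miR-277-3p lacked 1.32 to 1.50 nt, with no overlap between the guides. Reads that lacked 3 nt or more made up 14.0 to 43.8% of miR-317-3p and 1.21 to 2.87% of miR-277-3p. The share of shorter reads thus spanned 1.57-fold over the libraries for miR-317-3p and 1.56-fold for miR-277-3p. The loss per short read ranged over 0.756 nt for miR-317-3p and 0.177 nt for miR-277-3p.

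Reads longer than annotated were the smallest class. They made up 5.24 to 8.45% of miR-317-3p reads and 1.07 to 1.62% of miR-277-3p reads. For each guide the lowest share was in library 81155 and the highest in 81160. The tables do not say whether the added bases match the genome.

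Against these length changes, the total abundance of each guide was steady. miR-317-3p had 5415 RPM (library 81154), 5352 RPM (81155), 5232 RPM (81156), 4950 RPM (81157), 5462 RPM (81158), 5068 RPM (81159), 5478 RPM (81160) and 4957 RPM (81161). The highest library exceeded the lowest by 1.11-fold, which was the smallest span, scaled to small RNA reads, among the 100 arms with at least 10 RPM on average and reads in every library. miR-277-3p had 4133 RPM (library 81154), 4087 RPM (81155), 3491 RPM (81156), 3518 RPM (81157), 4186 RPM (81158), 4101 RPM (81159), 4072 RPM (81160) and 3774 RPM (81161), a span of 1.20-fold. With other scalings the spans were 1.28 and 1.14-fold (miRNA reads) or 1.16 and 1.15-fold (median of ratios), in the same order of guides. miR-277-3p was lowest in 81156 and 81157, and next lowest in 81161. A span of 2-fold or more was reached by 0 of the 2 guides and by 30% of the 100 arms. In bulk cultures a lower level in every cell and fewer cells with the miRNA cannot be told apart.

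The steady totals held forms that varied more. The annotated 24 nt form of miR-317-3p alone had 938 RPM in library 81155 and 2327 RPM in 81160, a span of 2.48-fold, and its 21 nt form spanned 2.95-fold (439 to 1297 RPM). All reads of miR-317-3p below 24 nt summed to 2520 to 4133 RPM. For miR-277-3p the 23 nt form spanned 1.41-fold (1824 to 2576 RPM) and the 21 nt form 2.52-fold (333 to 842 RPM). Its shorter reads summed to 1315 to 2219 RPM, a span of 1.69-fold, against 1.64-fold for those of miR-317-3p. In every library the shorter reads of miR-317-3p outnumbered its annotated form, whereas for miR-277-3p this was the case only in 81154 and 81155.

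**Figure D3:**
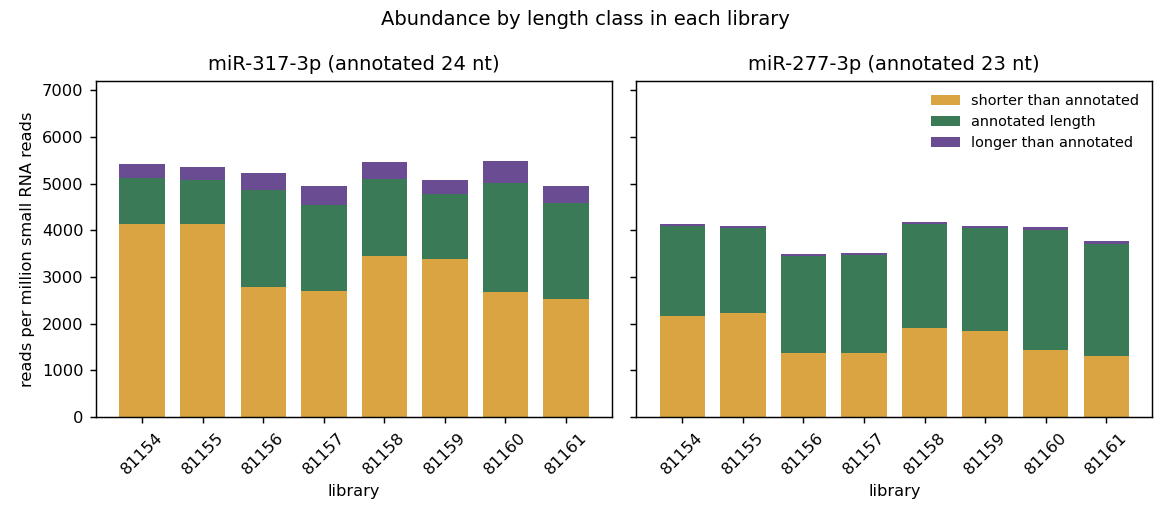
RPM (vertical axis from 0) of miR-317-3p (left) and miR-277-3p (right) in each library, stacked by reads shorter than, equal to and longer than the annotated length. The totals differ by at most 1.11-fold and 1.20-fold between libraries, while the split within each bar changes.

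The ratio of miR-317-3p to miR-277-3p does not depend on scaling. It was 1.31 in libraries 81154, 81155 and 81161, 1.50 in 81156, 1.41 in 81157, 1.30 in 81158, 1.24 in 81159 and 1.35 in 81160. Its 95% counting interval was 1.49 to 1.51 in 81156 and 1.22 to 1.25 in 81159. miR-317-3p was therefore the more abundant guide in 8 of 8 libraries. These are ratios of read numbers, and the efficiency of adapter ligation to each guide was not measured here.

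The opposite arms of both hairpins were rarer and steadier in length. miR-317-5p, annotated with 22 nt, had 130 to 167 RPM and a mean length of 21.84 to 21.94 nt. miR-277-5p, annotated with 21 nt, had 225 to 312 RPM and 20.48 to 20.65 nt. There were 32.0 to 40.1 reads of miR-317-3p for each read of miR-317-5p, and 12.6 to 16.0 reads of miR-277-3p for each read of miR-277-5p. Within the mir-317 hairpin the range in length was thus 1.196 nt on the 3p arm and 0.0990 nt on the 5p arm, and within mir-277 it was 0.355 and 0.170 nt.

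The third guide of the cluster, miR-34-5p, shares the annotated length of 24 nt with miR-317-3p. Its shorter reads made up 20.4 to 72.1%, against 49.1 to 77.2% for miR-317-3p. The abundance of miR-34-5p also moved more, between 0.472 and 0.866 reads for each read of miR-317-3p and between 0.697 and 1.13 for each read of miR-277-3p.

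Among the 100 arms, miR-317-3p had the third widest range in mean length and miR-277-3p the 25th, against a median of 0.210 nt. A range of 0.5 nt or more was reached by 1 of the 2 guides and by 12% of the 100 arms. An annotated length at the start position was found for 89 arms. Of these, 5 had a median share of shorter reads at or above that of miR-317-3p (58.9%), itself included. For miR-277-3p (42.1%) they numbered 17, itself included. The median over the 89 arms was 23.8%. Both guides were thus in the upper part of these arms by short reads, and miR-317-3p more so. The share depends on where the end of each arm is annotated. The highest, 99.9%, was that of miR-282-5p, annotated with 24 nt, whose share varied by only 0.0768 percentage points between libraries. The ranking therefore does not order the arms by how far their ends were shortened.

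Guides of like abundance had narrower ranges than miR-317-3p. The 5 nearest in median RPM were miR-276a-3p (0.0305 nt), miR-11-3p (0.356 nt), miR-965-3p (0.116 nt), miR-33-5p (0.0390 nt) and miR-279-3p (0.296 nt). For miR-277-3p the 5 nearest were miR-996-3p (0.181 nt), miR-279-3p, miR-308-3p (0.137 nt), miR-965-3p and miR-305-5p. Its range of 0.355 nt was wider than that of 4 of these, and miR-305-5p with 1.34 nt was wider still.

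**Figure D4:**
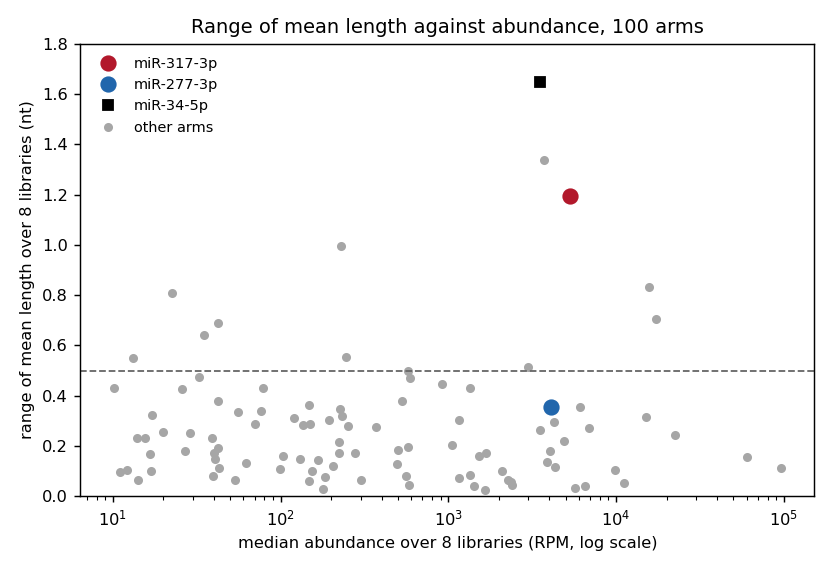
Range of the mean read length over the 8 libraries (nt, vertical axis from 0) against the median abundance in RPM (log axis) for the 100 arms, with miR-317-3p, miR-277-3p and miR-34-5p marked and a dashed line at 0.5 nt. miR-317-3p lies at 1.196 nt, above all but 2 arms, and miR-277-3p at 0.355 nt, below the line.

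Over the 8 libraries, the arm whose mean lengths were by Pearson r most like those of miR-317-3p was miR-277-3p (r = 0.986, Spearman rho = 0.952). It was followed by miR-305-5p (r = 0.982, rho = 0.976) and miR-988-3p (r = 0.973, rho = 0.905). For miR-277-3p the arms after miR-317-3p were miR-986-5p (r = 0.983, rho = 1) and miR-304-3p (r = 0.976, rho = 0.976). The first rank depended on the measure. By rho, miR-305-5p stood above miR-277-3p, and miR-986-5p and miR-304-3p stood above miR-317-3p. The likeness concerns the order and spacing of libraries and not the size of the change, since miR-986-5p ranged by only 0.0753 nt. The arms share their libraries and depth, and these 8 points describe the likeness without testing it.

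In abundance the guides were less alike. On log2 RPM, r was 0.630 and rho 0.548 between miR-317-3p and miR-277-3p, and 20 of 28 pairs of libraries were ordered alike. The arms most like miR-317-3p were miR-308-3p (r = 0.770), miR-275-5p (r = 0.677) and miR-9c-3p (r = 0.675), on a span of only 1.11-fold. Those most like miR-277-3p were miR-275-3p (r = 0.933), miR-11-3p (r = 0.932) and miR-79-3p (r = 0.926).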

How the data were processed

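Small RNAs of S2 cells were sequenced after selection for 18 to 30 nt and depletion of 2S rRNA, with 4 random bases at the adapter ends, per the labels' protocols. Genome build dm6 and the tools Bowtie 1.2.2, cutadapt 1.7.1 and Picard are listed in the submitters' processing notes, without their settings. The first deposited table holds no expression values but each library's whole-number totals of small RNA and miRNA reads. The signal deposited in the other tables is given by arm and 5′ start on the hairpin, in total and split by read length. The unit of that signal was worked out from the values: scaled back by each small RNA total over 1000000, 100% of values came within 0.001 of a whole read. It is therefore given as reads for every 1000000 small RNA reads (RPM), and the whole reads were used for shares and errors.

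The 8 library numbers are absent from the labels (0 found), so no library was tied to a genotype, the planned limma and edgeR tests were not run, and all 8 libraries were described singly. For other arms, repeated loci with the same listed seed were counted once, at the main start position. This left 262 mature arms, of which 100 averaged at least 10 RPM with reads in every library. Intervals are 95% Wilson intervals, and intervals and standard errors (SEs) reflect counting alone, since PCR copies of a molecule are not independent. Annotated arm lengths came from the BDGP6 annotation (dm6 coordinates), where an annotated mature arm began at the listed start position. On reads simulated at the real depths for 100 arms, 20 of 20 arms moved by 1 nt reached a range of 0.5 nt, as did 0 of 80 others. The others kept the same length profile in every library, so this checks the calculation against counting noise only. It cannot show how real differences between libraries act on the 0.5 nt limit. Arms were named by fixed rules: both members, the other arms of the 3 hairpins, the 3 arms most alike in length and in abundance, and the 5 guides nearest in abundance. The members, lists and limits were chosen with earlier results of these data known. Calculations used numpy 2.4.6, pandas 2.3.3 and scipy 1.17.1 under Python 3.11.15, and plots matplotlib 3.10.9. The alternatives were another length window, removal of the reads marked tc by the authors or of the median deviation of the arms, other scaling, other abundance minimums and omission of each library.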

Additional observations from a re-analysis of the deposited data

Results flagged for a closer look

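Reads in the class marked tc by the authors, which the labels do not define and which presumably carry a T-to-C mismatch, exceeded the 3 reads that a count of 0 allows in every library. miR-317-3p had 717 of them over the 8 libraries, with 49 in the lowest library, or 0.0716% of its reads. miR-277-3p had 662, with 55 in the lowest library, or 0.0890% of its reads. Pooled over the libraries these reads had a mean length of 22.61 nt for miR-317-3p, against 22.56 nt for all its reads. For miR-277-3p the values were 22.40 and 22.39 nt. At this depth very small shares pass the limit of 3 reads, so passing it does not set these guides apart. miR-34-5p, with 23 such reads in its lowest library, passed it too. Its median share over the libraries was 0.0661%, and that of miR-34-3p was 0.0690%. The medians were 0.0692% for miR-317-3p and 0.0889% for miR-277-3p. A share over all arms is not given here, and the source of the tc reads was not tested.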

How the results depend on the processing

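No paired analysis was possible because the library numbers match no label, and for the same reason the planned tests between genotypes were not run. Only 1 start position is listed for each guide, so summing start positions could not give another value. The range in mean length was 1.196 nt for miR-317-3p and 0.355 nt for miR-277-3p. It became 0.971 and 0.346 nt over 20 to 26 nt, 1.04 and 0.215 nt with the median deviation of the arms taken off, and 1.11 to 1.196 and 0.304 to 0.355 nt with 1 library left out. Removing the reads of the class marked tc moved neither beyond its counting error. The abundance span of 1.11-fold for miR-317-3p became 1.28 scaled to miRNA reads, 1.16 scaled by median of ratios and 1.10 to 1.11 when leaving out 1 library. For miR-277-3p, 1.20-fold became 1.14, 1.15 and 1.18 to 1.20 in that order, so which guide was steadier depended on the scaling. Arms with a range at or above that of miR-317-3p numbered 3, itself included, 41 with no abundance minimum, which adds arms with few reads, and 3 at 100 RPM or more. For miR-277-3p they numbered 25, 125 and 16. miR-317-3p was longer than miR-277-3p in 5 libraries, in 8 over 20 to 26 nt and in 5 without the tc reads, both chosen after seeing the data. What causes these differences was not tested. Depth did not limit these guides, with at least 64709 reads each.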

Other observations

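The 8 mean lengths left gaps at different places for the 2 guides. For miR-317-3p the widest gap, 0.458 nt, lay between library 81158 (22.43 nt) and library 81157 (22.89 nt), with 4 libraries on either side. For miR-277-3p the widest was 0.114 nt, between 81154 (22.25 nt) and 81158 (22.36 nt), with 2 libraries below and 6 above.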
